A study of Mus musculus with 4 samples.

Results

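The Notch receptors Notch1 and Notch2, the ligands Jag1, Dll1 and Dll4, the nuclear factor Rbpj, and the target or feedback genes Hes1, Hes5, Nrarp and Dtx4 were followed in sorted intestinal stem cells. These 10 genes were chosen by symbol and all 10 were found on the array, through 13 of its 55681 probes, among 24866 genes tested. Of the genes tested 14800 had a symbol. Each accession without a symbol was counted as a gene of its own, here and in every share of all genes below. The cells were Lgr5-high cells isolated by flow cytometry from Ifnar1-/-:Lgr5-EGFP-Ires-CreERT2 mice and from control Lgr5-EGFP-Ires-CreERT2 mice. Ifnar1 encodes a chain of the type I interferon receptor, and the Lgr5 allele, carried by both groups, is a knock-in that marks Lgr5-expressing cells with a green fluorescent protein and also encodes an inducible Cre. Mice of both genotypes were given poly(I:C), an artificial RNA duplex that provokes interferon production, intraperitoneally at 2 mg/kg each day for 1 week, per the design text, while the sample labels speak of 1 week after injection. The study therefore compared the genotypes under treatment, and no untreated group enters this comparison. The labels used here give no age, sex or genetic background, and do not say whether animals were pooled. RNA of 2 samples per genotype was hybridised to 4 single-colour Agilent arrays.

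Notch receptors are cleaved when a ligand on a neighbouring cell binds them, and the released intracellular part joins the DNA-binding protein RBPJ to switch on targets such as Hes1 and Hes5. In the intestinal crypt this signal keeps stem cells undifferentiated and steers their daughters towards the absorptive fate, partly because HES proteins repress Atoh1, the factor that starts secretory differentiation. Paneth and other secretory cells carry Dll1 and Dll4 and present them to the stem cells beside them.

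Promoter windows, from 250 bases before to 50 bases after the transcription start, were available in the RefSeq table of build GRCm38.p6 for 8 of the 10 genes, in 10 windows. Hes1 and Dtx4 were not matched. The windows of Hes5, Notch1 and Dll4 are printed, because Hes5 carries the recognition letters of RBPJ and because Notch1 and Dll4 had the largest differences between genotypes. Capitals mark TGGGAA, the core of the RBPJ motif, on either strand. The Hes5 window is chr4:154960673-154960972 on the plus strand, that of Notch1 is chr2:26503773-26504072 on the minus strand, and that of Dll4 is chr2:119325534-119325833 on the plus strand.
Hes5: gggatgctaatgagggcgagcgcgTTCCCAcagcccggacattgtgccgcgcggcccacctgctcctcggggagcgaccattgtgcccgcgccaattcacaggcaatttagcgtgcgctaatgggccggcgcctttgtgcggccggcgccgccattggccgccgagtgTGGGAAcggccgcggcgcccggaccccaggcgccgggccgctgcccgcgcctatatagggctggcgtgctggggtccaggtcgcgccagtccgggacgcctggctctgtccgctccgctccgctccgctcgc
Notch1: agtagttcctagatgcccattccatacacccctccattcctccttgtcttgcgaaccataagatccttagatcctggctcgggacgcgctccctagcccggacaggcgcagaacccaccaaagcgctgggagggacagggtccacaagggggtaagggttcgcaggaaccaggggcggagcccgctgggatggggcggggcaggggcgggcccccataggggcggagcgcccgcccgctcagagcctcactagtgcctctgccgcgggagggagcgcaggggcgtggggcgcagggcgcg
Dll4: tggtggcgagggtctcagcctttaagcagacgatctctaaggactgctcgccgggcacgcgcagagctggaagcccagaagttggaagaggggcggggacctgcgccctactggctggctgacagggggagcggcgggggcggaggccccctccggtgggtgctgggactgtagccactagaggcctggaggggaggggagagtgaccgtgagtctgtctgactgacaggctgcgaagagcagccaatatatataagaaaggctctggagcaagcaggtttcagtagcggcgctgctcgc

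The Hes5 window held TGGGAA 2 times, once on each strand, beginning 226 and 82 bases before the start. Both matches extend to the longer form GTGGGAA, which 6.38% of all 32851 windows of 300 bases hold at least once and 0.256% hold 2 or more times. The shorter core is common, being present in 25.6% of all windows. Besides Hes5, Rbpj was the other matched gene with the core, with 2 matches in one of its windows and 1 in the other, and it lacked the longer form. The Rbpj windows overlap, and the match in the second is the same stretch of bases as 1 of the 2 in the first. These are matches of letters on either strand and not measured sites.

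Each value below is a log2 signal relative to the 75th percentile of its own array, so that 0 is the level of a probe at that percentile. The 4 arrays lay on 2 slides. Slide 1 held Ifnar1-/- 1 and control 1, slide 2 held Ifnar1-/- 2 and control 2, and the slide number equals the replicate number in the labels. Between 63.3% and 67.7% of the spots were well above background and 0 were saturated. The mean net signal of negative control spots was 34.8 and 35.3 on slide 1 but 17.2 and 17.6 on slide 2. The targeted gene Ifnar1 was at -1.76 and -2.28 in the Ifnar1-/- samples, against -0.21 and -0.37 in the controls, a difference of -1.73 (limma with the slide as a block, adjusted p = 0.0496; without it, adjusted p = 0.478). This Ifnar1 probe was well above background on all 4 arrays. The other Ifnar1 probes were also lower on both slides. With each probe tested on its own they did not pass (slide-blocked limma, adjusted p = 0.0804 and 0.124, against 0.0408 for the probe shown). Lgr5, which marks the sorted cells and is in part set by the sort, was at 3.32 and 2.93 in the Ifnar1-/- samples, against 3.04 and 2.82 in the controls. The number of arrays limits the precision. In limma the spread used for a gene is drawn towards that of genes of like signal. The p-values and intervals therefore do not rest on the gene's own spread alone. Because the labels name no animals, they speak only for these particular samples, whose spread may in part be technical. In sorted bulk samples, fewer cells of a type and less RNA per cell cannot be told apart.

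The 10 Notch genes differed little between genotypes, and 0 of them passed the test. All 10 were well above background on all 4 arrays, so none of their values is a bound. Their differences, Ifnar1-/- minus control, ran from -0.51 for Dll4 to 0.33 for Notch1, with a median of 0.064 against 0.024 over all genes tested. The median size of the difference, whatever its sign, was 0.11 for the 10 genes and 0.17 over all genes. The median standard error of the difference was smaller for the 10 genes too. It was 0.108 against 0.166 over all genes with the slide as a block, and 0.204 against 0.301 without. The smaller size thus does not show that these genes are less affected than others. In limma without a slide term 0 of the 10 were called at an adjusted p of 0.05, as were 0% of all genes. With the slide as a block 0 of the 10 were called, beside 0.362% of all genes (8 higher, or 0.0322%, and 82 lower, or 0.33%), and the smallest adjusted p among the 10 was 0.396. At an unadjusted p of 0.05, 0 of the 10 passed without a slide term, beside 1.04% of all genes higher and 1.72% lower, and 1 of 10, Notch1, passed with the slide block, where 12.2% of all genes did. Lower values on both slides were seen for 3 of the 10 (Dll4, Hes1 and Hes5), beside 27.3% of all genes, and higher values on both slides for 4 (Notch1, Notch2, Rbpj and Nrarp), beside 33.9%. An exact permutation test of 2 against 2 arrays cannot give a two-sided p below 0.333.

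**Figure D1:**
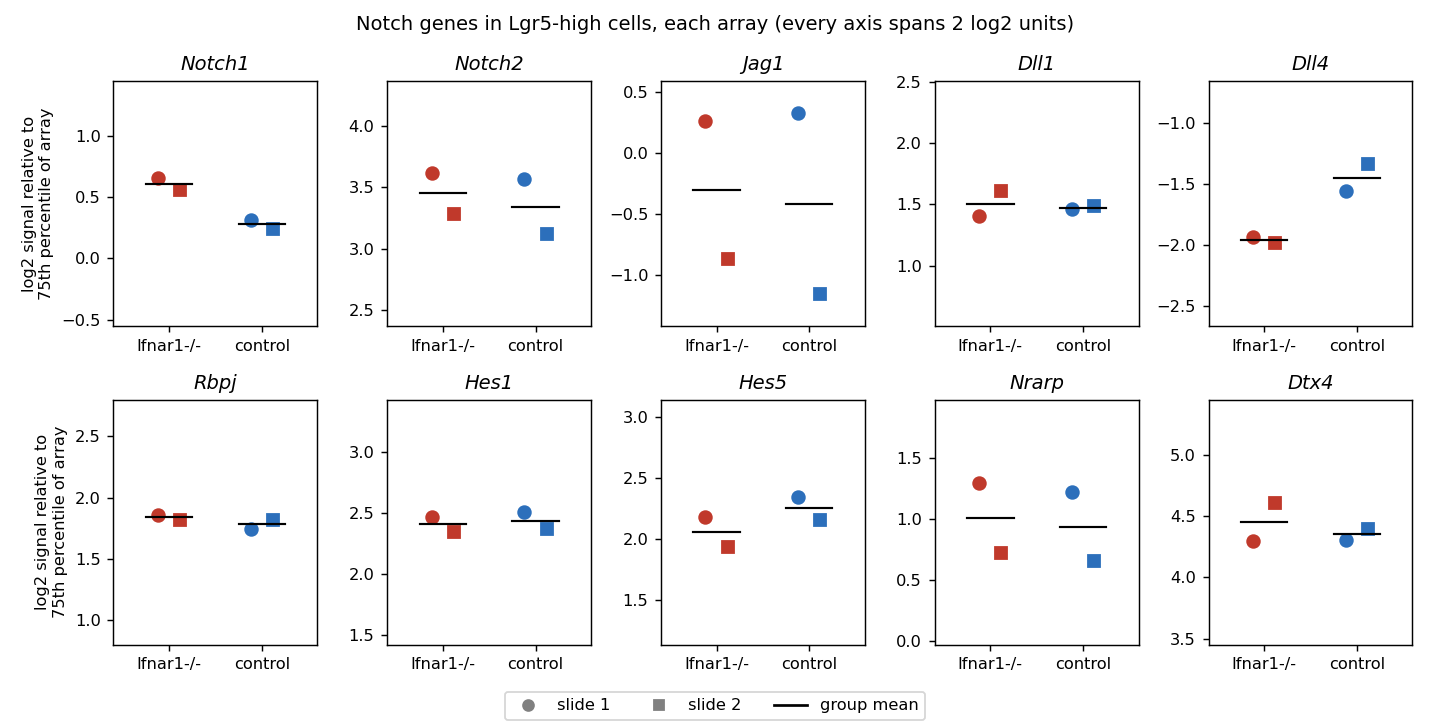
Each panel plots 1 gene, with the log2 signal relative to the 75th percentile of the array on the vertical axis, the 2 Ifnar1-/- arrays on the left and the 2 control arrays on the right; circles are slide 1, squares slide 2 and lines group means. Notch1 is higher and Dll4 lower on both Ifnar1-/- arrays, while Jag1, Notch2 and Nrarp part by slide within both genotypes.

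Among the receptors, Notch1 was slightly higher without Ifnar1. Notch1, which together with Notch2 maintains crypt progenitors, was at 0.66 and 0.56 in the Ifnar1-/- samples, against 0.32 and 0.24 in the controls. Both Ifnar1-/- values lay above both control values, an arrangement found for 14.5% of all genes. The mean was 0.61 ± 0.068 in the Ifnar1-/- samples and 0.28 ± 0.053 in the controls (SD, n = 2 each), a 1.25-fold higher level. The difference of 0.33 was nearly the same on slide 1 (0.34) and slide 2 (0.32). Its 95% interval was 0.017 to 0.64 with the slide as a block and -0.18 to 0.84 without, and it did not pass over all genes (slide-blocked limma, adjusted p = 0.396). A second Notch1 probe, for the same transcript, gave a smaller difference of 0.13, with 0.038 on slide 1 and 0.22 on slide 2 (95% interval -0.25 to 0.50 with the slide block).

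Notch2 was at 3.62 and 3.28 in the Ifnar1-/- samples, against 3.57 and 3.11 in the controls. The groups overlapped, and the slide 1 array was the higher one in each genotype. The difference was 0.11, with 0.055 on slide 1 and 0.17 on slide 2 (95% interval -0.11 to 0.33 with the slide block and -0.49 to 0.71 without; slide-blocked limma, adjusted p = 0.624). The second Notch2 probe gave the same difference of 0.11.

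Of the ligands, Dll4 had the largest difference among the 10 genes. Dll4, one of the ligands through which secretory cells activate Notch on stem cells, was at -1.93 and -1.98 in the Ifnar1-/- samples, against -1.56 and -1.34 in the controls. Both Ifnar1-/- values lay below both control values, as for 11.5% of all genes, and the Ifnar1-/- values were the more alike of the pairs. The mean was -1.96 ± 0.037 in the Ifnar1-/- samples and -1.45 ± 0.16 in the controls (SD, n = 2 each), a 1.42-fold lower level. The difference was -0.37 on slide 1 and -0.64 on slide 2, and its mean of -0.51 had a 95% interval of -1.02 to 0.0016 with the slide block and -1.19 to 0.18 without (slide-blocked limma, adjusted p = 0.409). In linear scanner units the Dll4 spots read 61.6 and 64.1 in the Ifnar1-/- samples, against 82.5 and 97.6 in the controls, so this transcript was measured at low signal on every array.

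Dll1, which acts beside Dll4 in the crypt, was at 1.40 and 1.61 in the Ifnar1-/- samples, against 1.46 and 1.48 in the controls. The control values lay between the Ifnar1-/- values. The difference of 0.033 changed sign between the slides, with -0.062 on slide 1 and 0.13 on slide 2 (95% interval -0.25 to 0.32 with the slide block; slide-blocked limma, adjusted p = 0.93). The Dll1 probe is printed 10 times on each array, which shows the spread of spots within an array, not that between samples. The SD over its spots was 0.053 and 0.043 in the Ifnar1-/- arrays, where 1 outlier spot was left out of the second, and 0.052 and 0.082 in the control arrays. The Ifnar1-/- samples differed from each other by 0.21, and their spots did not overlap, with a highest spot of 1.49 in Ifnar1-/- 1 and a lowest spot of 1.56 in Ifnar1-/- 2.

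**Figure D2:**
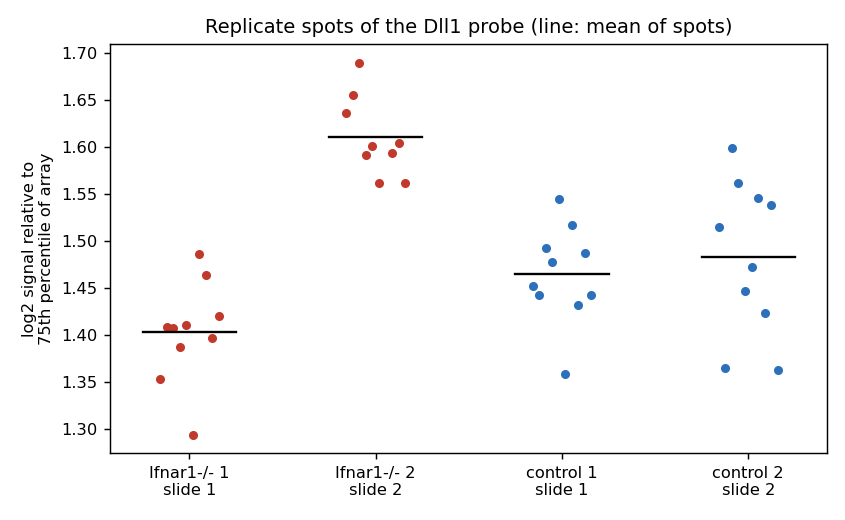
Points are the replicate spots of the Dll1 probe on each array, in log2 units above the 75th percentile of that array, with the Ifnar1-/- arrays on the left, the control arrays on the right and lines at the mean of the spots. The means are 1.40 and 1.61 in the Ifnar1-/- arrays and 1.46 and 1.48 in the control arrays.

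Jag1, a ligand of the other family, was at 0.26 and -0.86 in the Ifnar1-/- samples, against 0.32 and -1.15 in the controls. The slides, not the genotypes, separated its values. The difference between genotypes was -0.064 on slide 1 and 0.28 on slide 2, with a mean of 0.11 and a 95% interval of -0.30 to 0.52 with the slide block and -1.36 to 1.58 without (slide-blocked limma, adjusted p = 0.811).

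Rbpj, the DNA-binding partner of every Notch receptor, was at 1.86 and 1.82 in the Ifnar1-/- samples, against 1.74 and 1.82 in the controls. On slide 2 the genotypes were 0.00028 apart, so that although the groups do not formally overlap they touch. The difference was 0.056 (95% interval -0.20 to 0.32 with the slide block; slide-blocked limma, adjusted p = 0.856). The second Rbpj probe, for the same transcript, gave a larger difference of 0.38 (0.50 on slide 1, 0.27 on slide 2), whose 95% interval was -0.020 to 0.79 with the slide block. It did not pass when each of 35421 probes was tested on its own (slide-blocked limma, adjusted p = 0.442), and the probes of this gene thus disagree in size though not in sign.

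The targets Hes1 and Hes5 did not pass, and the sign of the Hes1 difference turned with another background correction (0.021 with normexp). Hes1, the repressor that restrains Atoh1 in the crypt, was at 2.47 and 2.34 in the Ifnar1-/- samples, against 2.51 and 2.37 in the controls. Its groups overlapped almost fully. The difference of -0.030 had a 95% interval of -0.26 to 0.20 with the slide block and -0.50 to 0.44 without (slide-blocked limma, adjusted p = 0.92). Hes5, the target whose promoter holds both RBPJ matches printed above, was at 2.18 and 1.94 in the Ifnar1-/- samples, against 2.34 and 2.16 in the controls. It was lower on each slide, by a difference of -0.16 on slide 1 and -0.22 on slide 2, yet Ifnar1-/- 1 lay above control 2 and the groups overlapped. The mean difference of -0.19 had a 95% interval of -0.44 to 0.051 with the slide block and -0.70 to 0.31 without (slide-blocked limma, adjusted p = 0.476).

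Nrarp, a target whose product limits the Notch signal in turn, was at 1.29 and 0.72 in the Ifnar1-/- samples, against 1.22 and 0.65 in the controls. Each Ifnar1-/- value stood just above the control value of its slide, with differences of 0.074 and 0.068, while the slides lay much further apart. The mean difference of 0.071 had a 95% interval of -0.21 to 0.36 with the slide block and -0.69 to 0.84 without (slide-blocked limma, adjusted p = 0.829). Dtx4, an E3 ubiquitin ligase of the Deltex family that acts on Notch receptors, was at 4.30 and 4.61 in the Ifnar1-/- samples, against 4.31 and 4.39 in the controls. The slide 1 values of the genotypes were nearly equal and Ifnar1-/- 2 was the highest of the 4. Its difference of 0.10 had a 95% interval of -0.12 to 0.33 with the slide block (slide-blocked limma, adjusted p = 0.672).

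**Figure D3:**
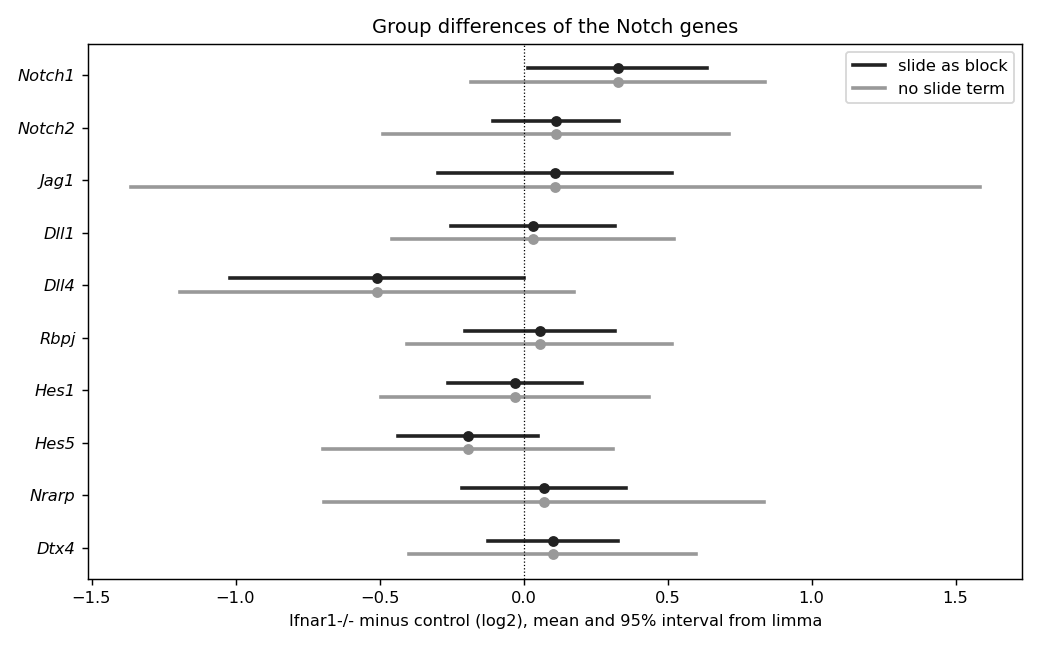
Points give Ifnar1-/- minus control on the log2 scale for each of the 10 genes and bars the 95% interval from limma, in black with the slide as a block and in grey without a slide term. The Notch1 interval with the block, 0.017 to 0.64, lies just above 0, that of Dll4, -1.02 to 0.0016, just reaches it, and every interval without the block spans it.

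Several of these genes differed more between slides than between genotypes. In the limma fit with the slide as a block, the slide term called 3 of the 10 genes lower on slide 2, beside 6.93% of all genes, and 0 of the 10 higher, beside 11.6%. Jag1 was lower on slide 2 by a difference of -1.12 in the Ifnar1-/- samples and -1.47 in the controls, which is 2.46-fold on average (95% interval of the log2 difference -1.70 to -0.89, adjusted p = 0.0111). Nrarp differed between slides by -0.57 in each genotype (adjusted p = 0.0286), and Notch2 by -0.34 in the Ifnar1-/- samples and -0.45 in the controls (adjusted p = 0.0361). The mean slide difference exceeded the mean genotype difference in size for 7 of the 10 genes, as it did for 67.3% of all genes. Notch1, Dll4 and Rbpj were the 3 for which the genotype difference was the larger. Sample, slide and scan coincide here, so a difference between slides and one between replicate samples cannot be told apart.

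**Figure D4:**
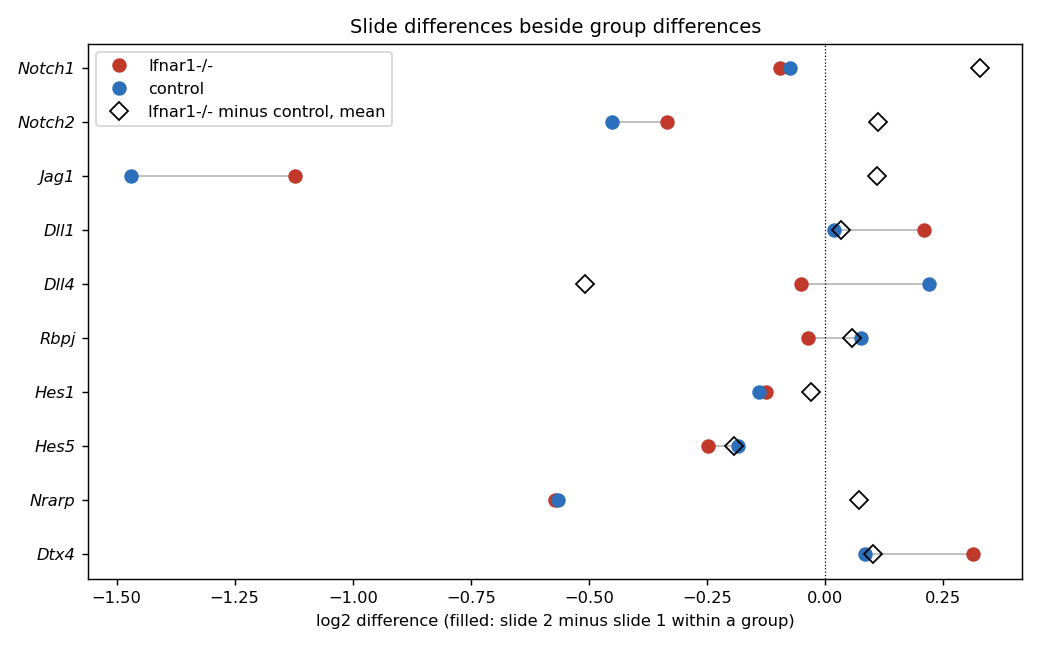
Filled points give slide 2 minus slide 1 on the log2 scale within the Ifnar1-/- samples (red) and within the controls (blue), and open diamonds give the mean Ifnar1-/- minus control difference of the same gene. Jag1 lies at -1.12 and -1.47 between slides while its genotype difference is 0.11, and for Dll4 the order is turned round, with a genotype difference of -0.51.

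Other genes of the pathway were examined by role, from a list of 51, of which 50 had a probe named here and 46 were tested. In limma 0 of the 46 passed over all genes in either direction, with or without the slide block. At an unadjusted p of 0.05 with the slide block 3 were higher and 4 lower, beside 7.31% and 4.93% of all genes. Their median difference was -0.0073, with 16 higher and 12 lower on both slides. The 8 tested genes of receptor cleavage, among them the ADAM proteases and the gamma-secretase subunits, ran from -0.31 to 0.22, and the 5 that glycosylate Notch from -0.27 to 0.062. The 6 tested co-activators ran from -0.17 to 0.17. Spen, a co-repressor that acts through RBPJ when no Notch is present, was at 0.49 and 0.75 in the Ifnar1-/- samples, against 0.21 and 0.43 in the controls. Its difference was 0.30 (slide-blocked limma, adjusted p = 0.418).

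The largest differences in the pathway, those of Hey1, Jag2 and Numbl, rested in part on readings at background. Hey1, a Notch target best known from blood vessels, was at -4.33 and -3.46 in the Ifnar1-/- samples, against -2.71 and -1.33 in the controls (slide-blocked limma, adjusted p = 0.123). It was well above background on 1 of the 2 Ifnar1-/- arrays and on both control arrays. The value of -4.33 was the one at background, so no mean size is given. On slide 2, where both Hey1 values were well above background, the difference was -2.14. Jag2, a ligand related to Jag1, was at -4.11 and -3.18 in the Ifnar1-/- samples, against -5.67 and -5.23 in the controls, where it was not well above background. Averaged over the arrays, Jag2 read at least 1.74-fold higher in the Ifnar1-/- samples. This bound takes, for each control array, its dimmest signal still well above background, or that of the probe if brighter. Jag2 did not pass (slide-blocked limma, adjusted p = 0.3), and it entered the test only through the Ifnar1-/- arrays, where it was higher. Numbl, which relates to the Notch antagonist Numb, was at -5.93 and -4.11 in the Ifnar1-/- samples, against -4.03 and -3.36 in the controls. The first of these was not well above background and lay under the dimmest signal that was on its array (-4.26), so no size is given for its difference (slide-blocked limma, adjusted p = 0.404).

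The remaining receptors and ligands did not pass either. Dll3, a ligand that does not activate Notch on neighbouring cells, differed by -0.79, with -1.40 on slide 1 and -0.19 on slide 2 (slide-blocked limma, adjusted p = 0.48). Notch3 was at -4.16 and -4.89 in the Ifnar1-/- samples, against -4.12 and -4.09 in the controls, and the second Ifnar1-/- value was not well above background. On slide 1, where both Notch3 values were, the difference was -0.036. Notch4 differed by -0.38, with opposite signs on the slides (-0.98 and 0.22). Hes7, known from the segmentation clock of the embryo, was at 0.070 and 0.48 in the Ifnar1-/- samples, against 0.96 and 0.85 in the controls, a difference of -0.63 (adjusted p = 0.286). Hes6, a family member that counteracts Hes1, differed by 0.28 in the other direction (adjusted p = 0.418). Hey2, Heyl and Hes3 were not well above background in either genotype and were not tested.

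**Figure D5:**
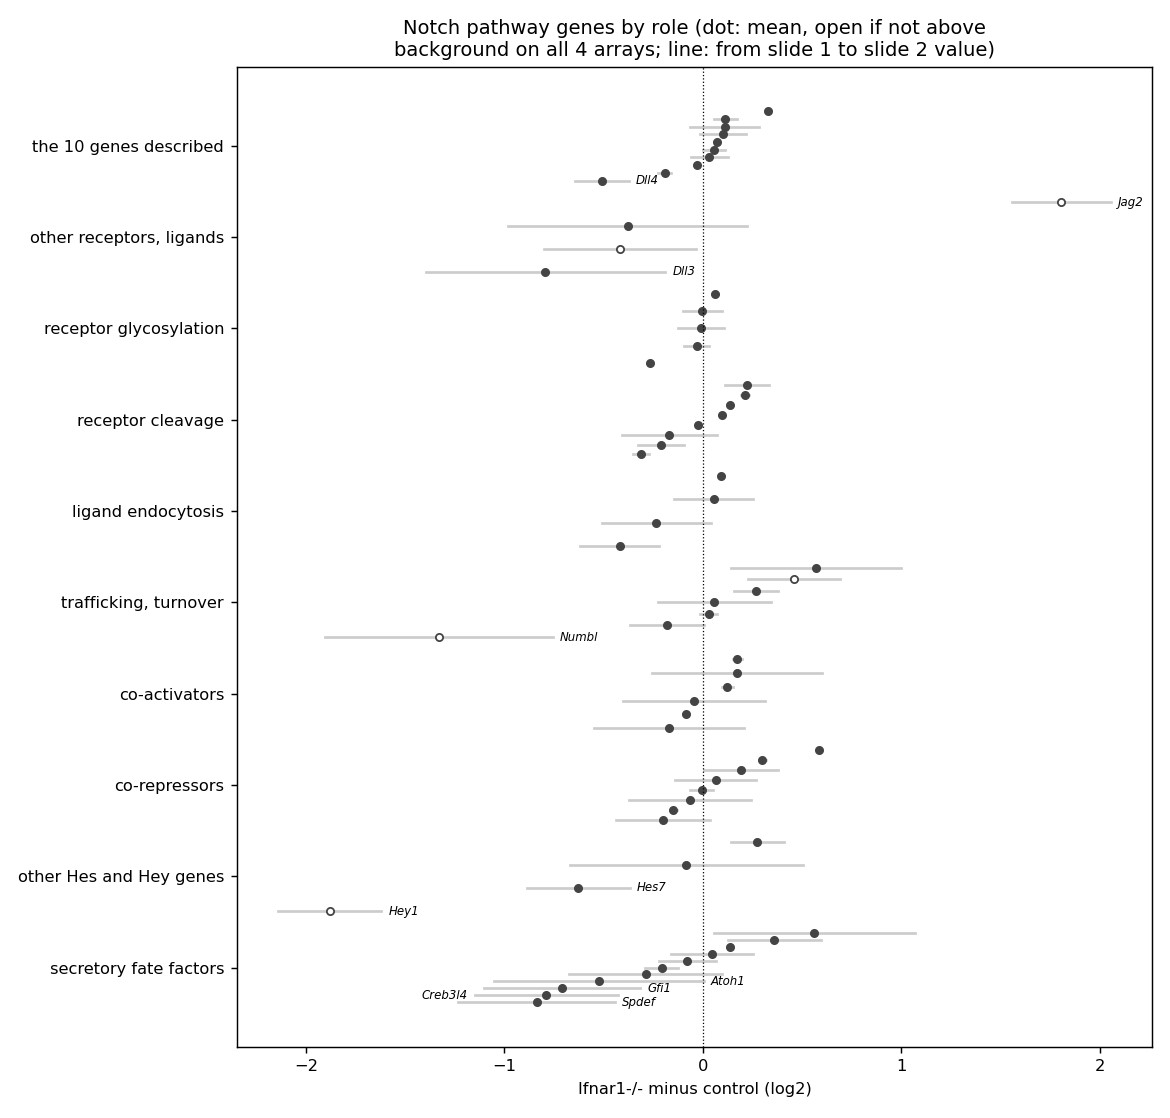
Each dot is the mean Ifnar1-/- minus control difference of 1 gene on the log2 scale and its grey line joins the differences on slide 1 and slide 2, with genes in rows by their role. Filled dots were well above background on all 4 arrays and open dots were not, so that the position of an open dot, such as Jag2, Hey1 or Numbl, rests in part on readings at background, and 0 genes shown passed the test over all genes.

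Factors of the secretory fate, which Notch restrains, had a median of -0.21 over 11 genes, with -0.29 on slide 1 and 0.064 on slide 2, and 0 of the 11 passed in limma with or without the slide block. Atoh1 was at -0.28 and 0.10 in the Ifnar1-/- samples, against 0.77 and 0.095 in the controls. Its difference was -1.05 on slide 1 and 0.0051 on slide 2 (slide-blocked limma, adjusted p = 0.477). On slide 1, control 1 had the highest Atoh1 value of all arrays and Ifnar1-/- 1 the lowest. Spdef, which promotes goblet and Paneth cell maturation, differed by -0.84 (adjusted p = 0.335), Creb3l4, a transcription factor of the CREB3 family, by -0.79 (adjusted p = 0.312) and Gfi1, which acts downstream of Atoh1, by -0.71 (adjusted p = 0.346). Each of these 3 was lower on both slides, and more so on slide 1. Of the 11, 4 were lower on both slides, 3 higher and 4 mixed. The 3 higher ones were Pou2f3, which specifies tuft cells (0.56), Neurod1, an enteroendocrine factor (0.36), and Sox9, needed for Paneth cells (0.13).

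Markers of other cell types are given because Dll4, Dll1, Notch1 and Hey1 are also made outside stem cells. Levels are summed over a list, in multiples of the array's 75th percentile. A sum follows the brightest probes of its list, and sums of different lists do not compare numbers of cells. The Paneth cell markers summed to 120 and 193 in the Ifnar1-/- samples, against 466 and 596 in the controls. All 8 tested of the 9 listed were lower on both slides, with a median of -2.04, and 7 of them fell with the slide block, beside 0.33% of all genes. In limma without the block 0 of the 8 were called, and 0 with the block but without the intensity trend. Defa24 had no probe named here. Enteroendocrine markers summed to 4.87 and 7.71 in the Ifnar1-/- samples, against 8.54 and 12.9 in the controls, with 7 of 8 lower on both slides and 0 called. Goblet markers summed to 109 and 152 in the Ifnar1-/- samples, against 140 and 143 in the controls. Tuft cell markers summed to 2.57 and 3.17 in the Ifnar1-/- samples, against 2.48 and 2.70 in the controls. The part of these cells in the Dll4 difference was not tested.

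Of the 6 endothelial markers, 2 were tested, and Cdh5 and Emcn were not well above background in either genotype. The list summed to 6.74 and 6.99 in the Ifnar1-/- samples, against 5.97 and 6.91 in the controls. Their part in the Dll4 and Hey1 differences was not tested. Stem cell markers summed to 55.6 and 47.5 in the Ifnar1-/- samples, against 48.4 and 45.5 in the controls, and 0 of 10 tested were called. Enterocyte markers summed to 65.7 and 69.5 in the Ifnar1-/- samples, against 45.5 and 53.9 in the controls, with 6 of 8 higher on both slides and 0 called. Immune cell markers summed to 207 and 328 in the Ifnar1-/- samples, against 212 and 337 in the controls. The differences of the 6 tested immune markers ran from -2.64 to 0.46, so near-equal sums do not mean that each was unchanged. Stromal markers summed to 0.607 and 0.769 in the Ifnar1-/- samples, against 0.472 and 0.605 in the controls. Itgax, Pdgfra and Col1a1 were not well above background in either genotype. Of these lists, 1 gene was called with the slide block, where 0.33% of all genes were called lower. It was the lysozyme gene Lyz2, which differed by -2.64 (slide-blocked limma, adjusted p = 0.00828). Its probe may also read the near-identical Lyz1 of Paneth cells. In limma without the block 0 of these markers were called, and 0 with the block but without the intensity trend.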

How the data were processed

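Total RNA of 4 samples was amplified, labelled with Cy3 and hybridised to single-colour arrays, per the labels' protocols. The deposited tables hold background-corrected spot intensity made with Agilent Feature Extraction 12.0.3.1, per the file headers, and the submitters' processing notes name 11.5.1.1. The deposited series table is this intensity times 1 constant per array, from 5.60 to 6.68, with column medians of 239 and 223 in the Ifnar1-/- samples and 249 and 231 in the controls. Its scaling target is unknown and genes were not centred. Flags, used as deposited, marked dim and outlier spots.

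Control and outlier spots were left out, log2 values of a probe's spots averaged and the 75th percentile over spots subtracted. Probes well above background on both arrays of a genotype were kept (35422), and each gene took its brightest probe. Accessions without versions matched RefSeq GRCm38.p6 symbols for 28331 probes, and 27350 stayed unnamed here. The design uses an older build, so probes have no coordinates. Groups were compared with limma 3.58.1 in R 4.3.3, with an intensity trend and Benjamini-Hochberg adjustment over all genes. The stated fit has no slide term. Because both slides held both genotypes, the fit with the slide, which is also the replicate number, as a block is given beside it. Across genes, control 1 minus control 2 correlated with Ifnar1-/- 1 minus Ifnar1-/- 2 at a Pearson r of 0.563 (genes are not independent). The fits were run on simulated data, with noise drawn from the model's own variance and planted differences larger than those of the 10 genes. That run checked the code, not whether differences as small as theirs can be found. The 10 genes and the lists were chosen with earlier results of these data known. The rule for naming took all 10 with every probe, Ifnar1, Lgr5, 7 fixed pathway genes with up to 4 more in each direction by smallest p, and Atoh1 with 3 fate factors by smallest p. One gene that the rule names is not reported here. Hes3, Defa24, Lyz2, Pou2f3, Neurod1, Sox9 and the undetected markers were named after their values were seen. Alternatives covered scaling, background correction, the series table, filters, the probe rule, outlier spots, variance model, threshold and leaving out arrays.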

Additional observations from a re-analysis of the deposited data

How the results depend on the processing

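None of the 10 Notch genes was called under any of the 18 alternatives, in either direction. Of 170 combinations of a Notch gene and an alternative, 158 kept the sign and 12 reversed it, and Notch1, Dll4, Rbpj and Hes5 kept theirs in all. With normexp background correction, Hes1 differed by 0.021 and Nrarp by -0.030, and with it or with quantile scaling 2 Notch genes were higher on both slides. Leaving out 1 array moved the differences between -0.11 and 0.34 for Notch2, -0.62 and 0.85 for Jag1, -0.071 and 0.14 for Dll1, -0.10 and 0.040 for Hes1, -0.22 and 0.36 for Nrarp, and -0.054 and 0.26 for Dtx4. It moved them between -0.32 and -0.069 for Hes5 (-0.19 with all arrays) and 0.018 and 0.095 for Rbpj (0.056), whose mean over both probes was 0.22, and the median of the 10 between -0.11 and 0.053. Because both slides hold both genotypes, a left-out array unbalances them. The replicate block, which is the slide, gave 8 genes higher, 82 lower, 8 markers called and Ifnar1 at -1.73 (limma, adjusted p = 0.0496), and it changed no call among the Notch genes. That fit has 1 residual degree of freedom, and without the intensity trend it called 0 genes. Without the block, leaving out 1 array gave 0 to 3 genes higher, 9 to 88 lower (18 without control 1, 71 without control 2, 9 without Ifnar1-/- 1, 88 without Ifnar1-/- 2) and 0 to 8 markers called. The cause was not tested. Percentiles over probes and tests of single probes were added after seeing the data, as was the block fit without trend. Dll4 and Hey1 lie at low signal, where background correction weighs most, and Dll4 was at -0.28 with normexp.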
